A study of Mus musculus with 2239 samples.

Results

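The expression of 10 immediate early and related genes was followed across single splenic regulatory T cells: Nr4a1, Egr1 and Egr2, here called the TCR-linked genes, the AP-1 genes Fos, Jun and Junb, the RNA-decay genes Btg2 and Zfp36, and Dusp1 and Cd69. The 10 genes were taken by name from the 23725 gene rows of a table of unique molecular identifiers (UMIs), in which each counted UMI stands for 1 captured RNA molecule. Regulatory T cells (Tregs) hold back other immune cells, and Foxp3 is the transcription factor that defines them. The cells were labelled as spleen of male B6 mice aged 7 months that carried a Foxp3 reporter, and were sorted as DAPI-, TCRb+, CD4+ and GFP+ cells before encapsulation in droplets by the inDrops method. Colon and control also stand in the sample type label, while the tissue label of each cell is spleen, and no second group, treatment or genotype was compared. All cells came from 1 library, so no difference below has a replicate check and none was tested across samples. Intervals are at 95% and cover counting error only. The number of mice behind the library is not given in the sources used here.

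Immediate early genes are transcribed within minutes of a stimulus, without new protein synthesis, from promoters that stand ready. Signals from the T cell receptor (TCR) run through calcium, MAP kinases and protein kinase C to serum response factor, CREB and MEF2 at these promoters, and Nr4a1 and the Egr genes are widely used as marks of recent TCR engagement. AP-1 genes and the RNA-decay genes also answer cytokines, stress and the handling of cells, and the proteins made from Btg2 and Zfp36 shorten the life of other messages.

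The members' promoters show the sequence elements that these signals use, and those of 5 members on which the results turn are printed, from 250 bases before to 50 bases after an annotated start site. Capitals mark 2 kinds of match: the CArG box, which serum response factor binds, and TGACG or its complement CGTCA, the core of the CREB site. Each sequence reads 5′ to 3′ on the strand of the gene and comes from RefSeq on GRCm38.p6, the build also called mm10.
Nr4a1, chr15:101266596-101266895 (+ strand): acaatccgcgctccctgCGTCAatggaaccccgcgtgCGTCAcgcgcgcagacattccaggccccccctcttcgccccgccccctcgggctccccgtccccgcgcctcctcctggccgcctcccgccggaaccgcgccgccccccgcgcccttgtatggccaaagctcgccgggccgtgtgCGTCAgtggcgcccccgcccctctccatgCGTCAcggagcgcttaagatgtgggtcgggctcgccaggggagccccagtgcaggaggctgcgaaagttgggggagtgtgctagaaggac
Egr2, chr10:67537619-67537918 (+ strand): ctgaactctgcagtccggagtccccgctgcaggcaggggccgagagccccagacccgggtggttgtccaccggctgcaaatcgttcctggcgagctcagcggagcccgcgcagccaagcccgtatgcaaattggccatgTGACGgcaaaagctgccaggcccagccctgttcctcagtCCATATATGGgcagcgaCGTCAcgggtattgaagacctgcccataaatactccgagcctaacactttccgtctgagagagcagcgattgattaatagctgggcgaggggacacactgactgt
Junb, chr8:84978699-84978998 (- strand): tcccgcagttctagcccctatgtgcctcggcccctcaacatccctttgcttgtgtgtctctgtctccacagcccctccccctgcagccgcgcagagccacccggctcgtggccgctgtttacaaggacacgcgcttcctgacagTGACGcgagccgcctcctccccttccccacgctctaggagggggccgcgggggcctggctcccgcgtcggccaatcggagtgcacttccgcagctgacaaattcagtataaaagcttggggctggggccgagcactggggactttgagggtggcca
Zfp36, chr7:28379179-28379478 (- strand): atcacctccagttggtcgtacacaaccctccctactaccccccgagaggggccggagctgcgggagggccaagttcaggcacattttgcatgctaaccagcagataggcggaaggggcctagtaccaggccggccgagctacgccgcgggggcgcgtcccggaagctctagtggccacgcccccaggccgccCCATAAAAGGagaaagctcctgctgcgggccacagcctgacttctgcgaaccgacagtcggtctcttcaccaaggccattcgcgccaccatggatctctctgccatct
Btg2, chr1:134079106-134079405 (- strand): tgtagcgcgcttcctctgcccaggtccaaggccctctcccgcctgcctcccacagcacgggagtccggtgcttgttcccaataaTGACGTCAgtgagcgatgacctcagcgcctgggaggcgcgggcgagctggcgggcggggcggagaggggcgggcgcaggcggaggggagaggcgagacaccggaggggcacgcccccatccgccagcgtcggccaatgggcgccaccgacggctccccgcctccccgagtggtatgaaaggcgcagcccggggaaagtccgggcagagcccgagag
A promoter entry was used for 8 of the 10 members, 12 entries in all, 5 of them for Egr2. Egr1 was left out with its whole chromosome, which the shares over all genes keep, and no entry was matched for Cd69. The Egr2 entry printed is among those with the most marked letters. The Nr4a1 promoter holds 4 TGACG or CGTCA matches and no CArG box. The Egr2 promoter holds 1 CArG box between 2 such matches, and 4 of the 5 Egr2 entries hold the box. Zfp36 holds 1 CArG box and no TGACG match, Junb holds 1 TGACG match, and the pair of matches in Btg2 overlaps to form the full CREB site TGACGTCA. A CArG box was found in the promoters of 2 of the 8 members and in those of 1.81% of the 27025 genes of the promoter table, TGACG or CGTCA in 6 of the 8 and in 23.0% of genes, and TGACGTCA in 2 of the 8, Btg2 and Dusp1, and in 2.03% of genes. No entry of these 8 members holds the AP-1 site TGACTCA or its complement TGAGTCA, which 5.95% of genes have. The sites GCGGGGGCG and GCGTGGGCG, bound by EGR proteins, were searched with their complements and found for Nr4a1 and Zfp36 and for 3.93% of genes. These are matches of letters on either strand in windows of the same length, not measured binding.

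Of 2239 cells in the table, 2055 had at least 500 UMIs and were kept, with 500 to 4329 UMIs and a median of 974 UMIs and 551 genes per cell. Clustering without the members gave 10 clusters. A cluster of 88 cells had the markers of B cells and another of 43 cells those of myeloid cells, and these 131 cells were set aside, which left 1924 cells called T cells here. Their Treg label was checked on its defining gene, and Foxp3 had a UMI in 30.6% of T cells and in 3.41% of B cell-like cells, at median depths of 976.5 and 908.5 UMIs. Among the T cells 188 were activated Treg-like (high in Klrg1, Icos and Maf), 150 resting Treg-like (high in Ly6c1 and Igfbp4), 77 proliferating-like, and 1509 stayed unnamed. The activated Treg-like cluster also led in Ccl5, Gzma and Nkg7, which NK cells share.

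The members made up 1577 UMIs in T cells, 0.0781% of all, and 54.1% of T cells held none of them. Levels are given as CPM, the UMIs of a gene scaled to a total of 1000000 UMIs summed over a group of cells. UMI counts tag molecules and were not divided by gene length. Free RNA in droplets gives some UMIs to any cell. Egr1, Egr2 and Fos had none in the 88 B cell-like cells, a count whose interval reaches 4.11% of cells. The other 7 members were seen there too, Junb in 12.5% of B cell-like and 14.3% of T cells, Nr4a1 in 6.82% and 5.35%, and Dusp1 in 1.14% and 3.64%, and B cells can express several of these genes themselves.

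Nr4a1 encodes an orphan nuclear receptor that restrains T cell activation and lies at chr15:101253902-101274795. It had 179 UMIs in 103 T cells, a level of 88.7 CPM (76.1 to 103). Egr1 and Egr2 encode zinc finger transcription factors, of which Egr2 limits the response of T cells to repeated stimulation. Egr1 had 93 UMIs in 59 T cells (46.1 CPM, 37.2 to 56.4). Egr2, at chr10:67534469-67542188, had 48 UMIs in 31 T cells (23.8 CPM, 17.5 to 31.5). All 3 were bunched in few cells: UMIs spread in proportion to depth would have reached 170 cells for Nr4a1, 90.5 for Egr1 and 47.3 for Egr2, and the 10 highest cells held 27.4%, 40.9% and 56.2% of their UMIs.

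The AP-1 genes differed widely in level. Junb, at chr8:84976909-84978748, had 347 UMIs in 276 T cells (172 CPM, 154 to 191). Jun, at chr4:95049036-95052222, had 23 UMIs in 20 T cells (11.4 CPM, 7.22 to 17.1). Fos, at chr12:85473890-85477274, had 7 UMIs in 5 T cells (3.47 CPM, 1.39 to 7.14). Another 7 Fos UMIs lay in 7 of the 43 myeloid-like cells, at 164 CPM (65.8 to 337). Statements on the summed AP-1 and RNA-decay genes in T cells therefore rest on Junb, Btg2 and Zfp36, which gave 97.1% of those UMIs.

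Btg2, whose product recruits the CCR4-NOT deadenylase and restrains proliferation, lies at chr1:134074865-134079155. With 372 UMIs in 322 T cells it had the highest level of the 10, 184 CPM (166 to 204). Zfp36, at chr7:28376784-28379228, encodes tristetraprolin, which binds AU-rich messages and speeds their decay. It had 293 UMIs in 251 T cells (145 CPM, 129 to 163). Dusp1, at chr17:26505591-26508472, encodes a phosphatase that switches off MAP kinases and had 74 UMIs in 70 T cells (36.7 CPM, 28.8 to 46.0). Cd69, at chr6:129267324-129275375, encodes an early activation receptor that opposes the egress receptor S1PR1 and had 141 UMIs in 120 T cells (69.8 CPM, 58.8 to 82.4). Btg2 was spread nearly as depth predicts, over 322 cells where 334 were expected, and its 10 highest cells held 8.33% of its UMIs.

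In order of level, Btg2, Junb and Zfp36 stood at the top, then Nr4a1, Cd69, Egr1, Dusp1, Egr2, Jun and Fos. The intervals of neighbours overlapped for Btg2 and Junb, Junb and Zfp36, Nr4a1 and Cd69, Egr1 and Dusp1, and Dusp1 and Egr2, and did not for the other neighbours. Exons of an opposite-strand gene overlap those of Jun (Junos) and Zfp36 (Gm44710) in GENCODE M21, and whether strand was used in counting is not given in the sources used here.

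**Figure D1:**
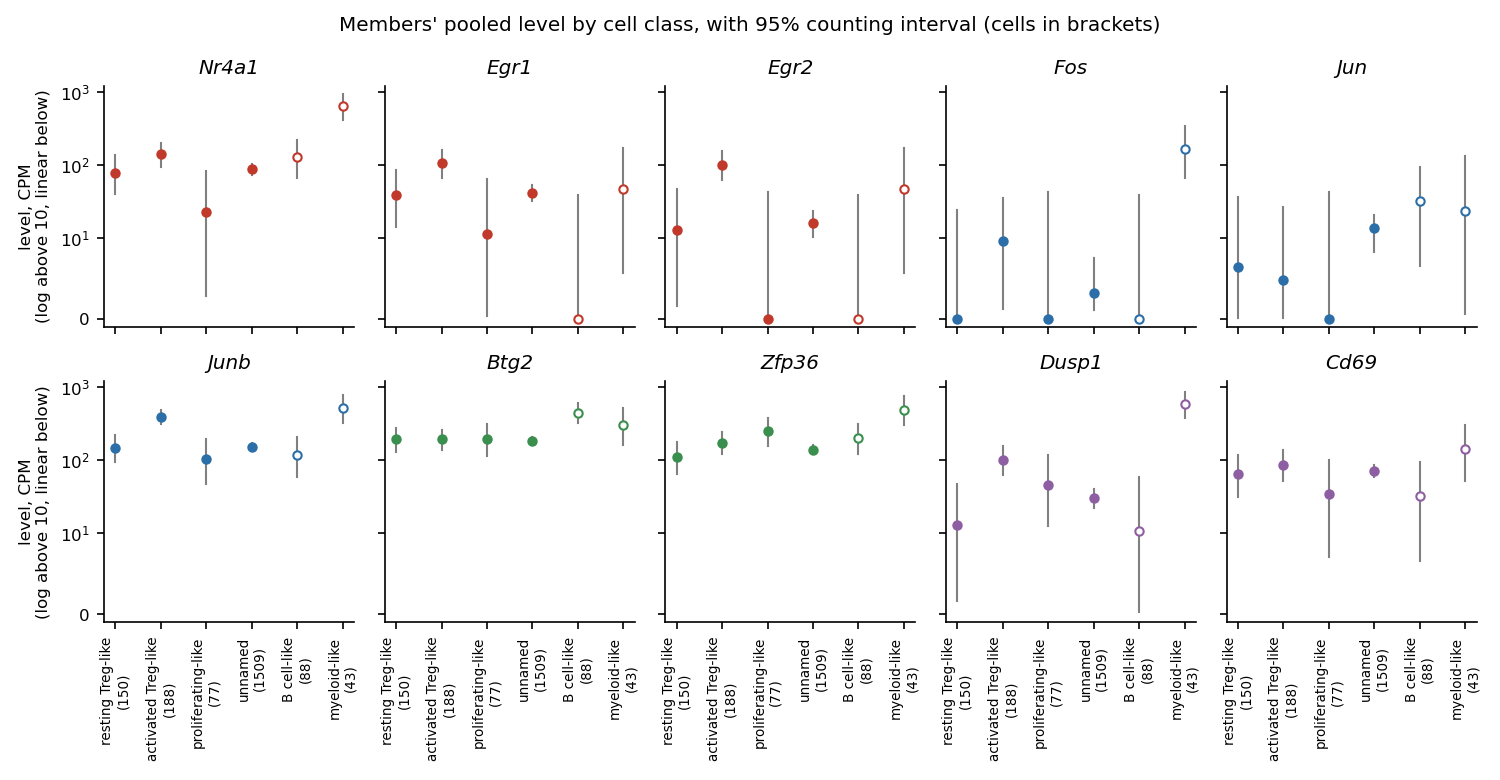
Pooled level of each member (y axis, CPM, log above 10 and linear below) in each cell class (x axis, cells in brackets). Points are levels, bars their 95% counting intervals, filled points T cell classes and open points the B cell-like and myeloid-like cells set aside. Junb, Egr2 and Dusp1 sat higher in activated than in resting Treg-like cells, while Btg2 was at 191 and 192 CPM in these classes.

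By class, Junb and Dusp1 were higher in activated than in resting Treg-like cells beyond their counting intervals. Egr2 was too with all cells counted, 1 high cell among them. The intervals of the other members overlapped. Egr2 stood at 100 CPM (62.2 to 154) in activated Treg-like cells, against 12.8 (1.55 to 46.3) in resting ones. Of its 21 UMIs in activated Treg-like cells, 7 came from 1 cell. Whether the Egr2 intervals stay apart without that cell was not tested. Egr1 stood at 105 CPM (65.9 to 159) and 38.4 CPM (14.1 to 83.7), and Nr4a1 at 139 CPM (92.9 to 199) and 76.9 CPM (39.7 to 134), intervals that overlap. Junb stood at 387 CPM (308 to 481) and 147 CPM (93.4 to 221), and Dusp1 at 100 CPM (62.2 to 154) and 12.8 CPM (1.55 to 46.3). Btg2 was at 191 CPM (137 to 260) and 192 CPM (130 to 274), and Zfp36 at 172 CPM (121 to 238) and 109 CPM (63.4 to 174). Proliferating-like cells held 2 Nr4a1 UMIs, 1 Egr1 UMI and no UMI of Egr2, Fos or Jun, and Zfp36 was at 251 CPM (157 to 380) in them.

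The summed TCR-linked level in activated Treg-like cells was 2.69 times that in resting ones (1.62 to 4.66). It stood at 344 CPM (269 to 434) in activated Treg-like cells and 221 CPM (177 to 273) in an unnamed cluster of 351 cells. Nr4a1 alone was at 139 CPM in the former and 146 CPM in the latter. With 500 in place of 1000 variable genes for clustering the ratio of activated to resting Treg-like cells was 1.26. With 2000 it was 4.81, so its size moves with the class boundaries. The activated Treg-like class also carried NK markers at 1119 CPM, against 12.8 CPM in resting Treg-like cells, and myeloid markers at 851 against 314 CPM. The part of these in the members' levels was not tested.

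The 3 TCR-linked genes were found together in the same T cells far more often than depth predicts. The expected number lets each gene fall on cells in proportion to their total UMIs, scaled to the number of cells in which it was seen. Nr4a1 and Egr1 shared 27 cells where 3.6 were expected, a ratio of 7.49 (4.94 to 10.9). Nr4a1 and Egr2 shared 14 cells where 1.90 were expected, and Egr1 and Egr2 shared 16 where 1.09 were. At least 2 of the 3 genes were seen in 33 cells against 6.43 expected, 5.13 times as many (3.53 to 7.21), and all 3 in 12 cells against 0.0793. With every cell thinned to 500 UMIs the ratio for at least 2 genes was 9.73 (5.67 to 15.6). Across T cells the correlation of Pearson residuals, which remove depth, was 0.32 for Nr4a1 with Egr1, 0.26 for Nr4a1 with Egr2 and 0.33 for Egr1 with Egr2 (1924 cells of 1 library).

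Pairs of the 3 abundant AP-1 and RNA-decay genes, Junb, Btg2 and Zfp36, were seen about as often as depth predicts. Junb and Btg2 shared 57 cells where 51.4 were expected, a ratio of 1.11 (0.840 to 1.44). Junb and Zfp36 shared 43 where 40.2 were expected (1.07, 0.773 to 1.44), and Btg2 and Zfp36 shared 49 where 46.8 were (1.05, 0.774 to 1.38). Of the 6 pairs within these 5 genes that had at least 2 cells expected, 1 reached 1.5, Jun with Junb, at 6 cells against 3.25 (0.678 to 4.02), and the median was 1.06. Larger groups of these 5 genes were more frequent than expected: at least 3 were seen in 21 cells against 10.4 expected (2.01, 1.25 to 3.08), while at least 2 were seen in 121 against 130 (0.934, 0.775 to 1.12). At least 2 of the 3 AP-1 genes were seen in 9 cells against 4.10 (2.20, 1.005 to 4.17). In cells with a Btg2 or Zfp36 UMI, Junb stood at 195 CPM, against 162 CPM in cells without.

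**Figure D2:**
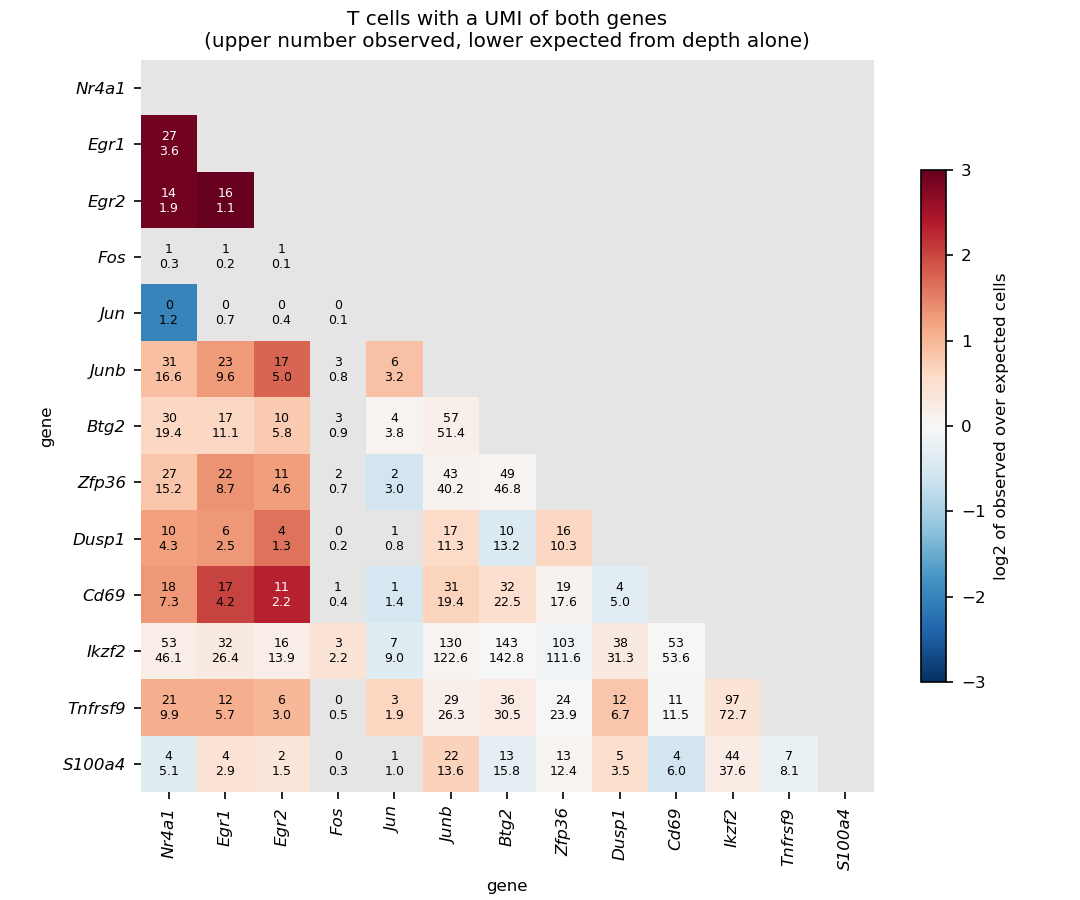
Number of T cells with a UMI of both genes, for each pair of members and of Ikzf2, Tnfrsf9 and S100a4 (both axes are genes). The upper number in a square is observed and the lower is expected from depth, color is the log2 of their ratio (a pair with 0 cells is drawn at a ratio of 1/4), and squares with under 1 cell expected are grey. The 3 TCR-linked pairs are dark red, and the squares of Junb, Btg2 and Zfp36 with one another are near white.

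TCR-linked genes and AP-1 or RNA-decay genes did overlap. All 9 such pairs with at least 2 cells expected reached a ratio of 1.5, with a median of 1.86. Among all pairs of genes in the range of the members' cell numbers with at least 2 cells expected, 12.5% reached 1.5. Egr2 and Junb shared 17 cells where 5.03 were expected, Egr1 and Zfp36 22 where 8.70 were, and Nr4a1 and Btg2 30 where 19.4 were. Cd69 paired most with Egr2, in 11 cells against 2.21, and with Egr1, in 17 against 4.19. Nr4a1 and Jun shared 0 cells where 1.22 were expected, too few to read.

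T cells were next grouped by detection. The 148 T cells with a UMI of Nr4a1, Egr1 or Egr2 were compared with the 1776 without, at median depths of 1068 and 967.5 UMIs. Summed AP-1 and RNA-decay genes stood at 993 CPM and 468 CPM, a ratio of 2.12 (1.80 to 2.49). Zfp36 stood at 327 and 127 CPM (2.59, 1.92 to 3.44), Junb at 376 and 151 CPM (2.48, 1.88 to 3.24), and Btg2 at 279 and 175 CPM (1.60, 1.17 to 2.15). Cd69 had the largest ratio among them, 209 against 55.7 CPM (3.76, 2.53 to 5.49). Dusp1 stood at 69.8 and 33.3 CPM (2.10, 1.06 to 3.86), with a ratio of 1.12 (0.349 to 2.81) when activated Treg-like cells were left out. Thinned to 500 UMIs per cell, the ratio of Cd69 was 6.14 (3.54 to 10.2) and that of Junb 3.77 (2.33 to 5.85). Among the 1260 kept cells of any class without a B cell or myeloid marker UMI they were lower, 2.52 (1.36 to 4.39) for Cd69 and 1.67 (1.07 to 2.52) for Junb. Jun had 0 UMIs in the 148 cells and 23 in the others, and the interval of its ratio reached up to 1.71. Of 6 members measured, with at least 20 UMIs over both sides, the 5 other than Jun were at least 1.5-fold higher, where 16.1% of 7452 genes were. Fos had 2 and 5 UMIs and was not measured.

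The excess of AP-1 and RNA-decay genes lay mostly in the 33 cells with at least 2 TCR-linked genes, a division chosen after the values were seen. Their summed level was 468 CPM (437 to 500) in the 1776 cells with none, 594 CPM (475 to 732) in the 115 cells with 1, and 2443 CPM (1983 to 2977) in the 33 cells with 2 or 3. Against cells with none, the ratio was 1.27 (1.01 to 1.58) for cells with 1 gene and 5.22 (4.19 to 6.44) for cells with 2 or 3. Median depths were 967.5, 1074 and 1056 UMIs, close between cells with 1 gene and cells with 2 or 3. Junb stood at 151, 191 and 1047 CPM, Zfp36 at 127, 212 and 748 CPM, Btg2 at 175, 191 and 598 CPM, and Cd69 at 55.7, 102 and 598 CPM. Foxp3 stood at 399, 334 and 274 CPM, with intervals that overlap (371 to 429, 247 to 442 and 137 to 491). B cell markers stood at 68.2, 68.2 and 49.9 CPM (56.8 to 81.3, 32.7 to 125 and 6.04 to 180). Myeloid markers stood at 413, 362 and 299 CPM (384 to 444, 271 to 473 and 155 to 523). In the 33 cells these rest on 2 and 12 UMIs, and their part in the members' levels was not tested.

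**Figure D3:**
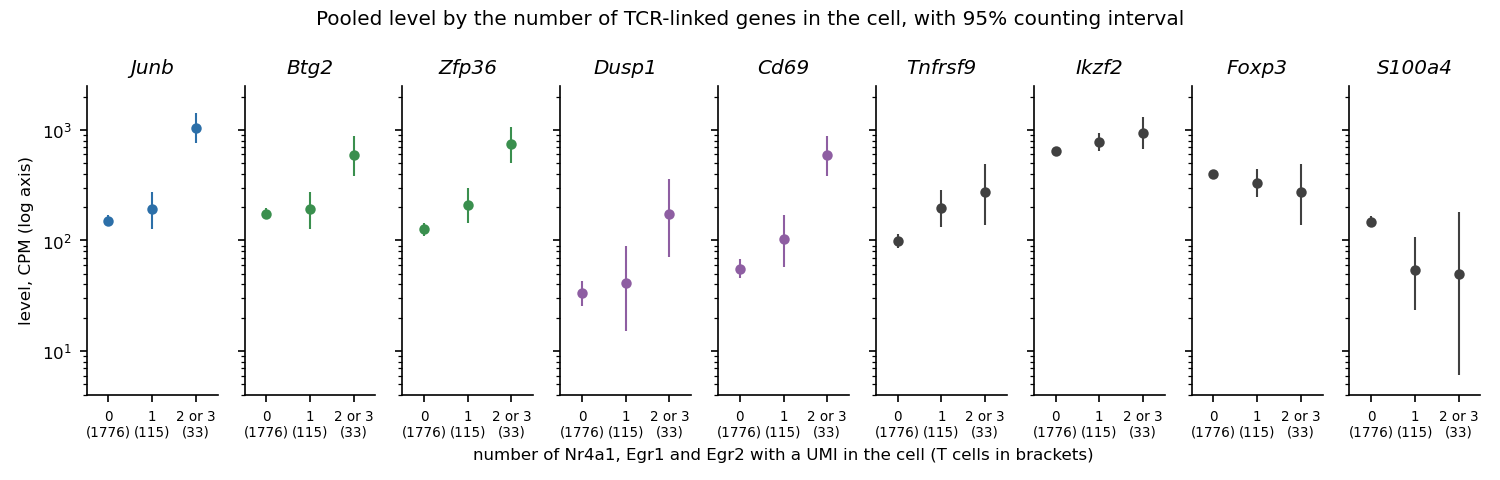
Pooled level (y axis, CPM, log axis) of 5 members and of Tnfrsf9, Ikzf2, Foxp3 and S100a4 in T cells with 0, 1 or at least 2 of the TCR-linked genes (x axis, cells in brackets), with 95% counting intervals. Junb, Btg2, Zfp36 and Cd69 step up in the 33 cells with 2 or 3 genes, and Foxp3 and S100a4 have lower points there than in the 1776 cells with none. An S100a4 UMI was seen in 6.06% of the 33 cells and 4.34% of the 1776.

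**Figure D4:**
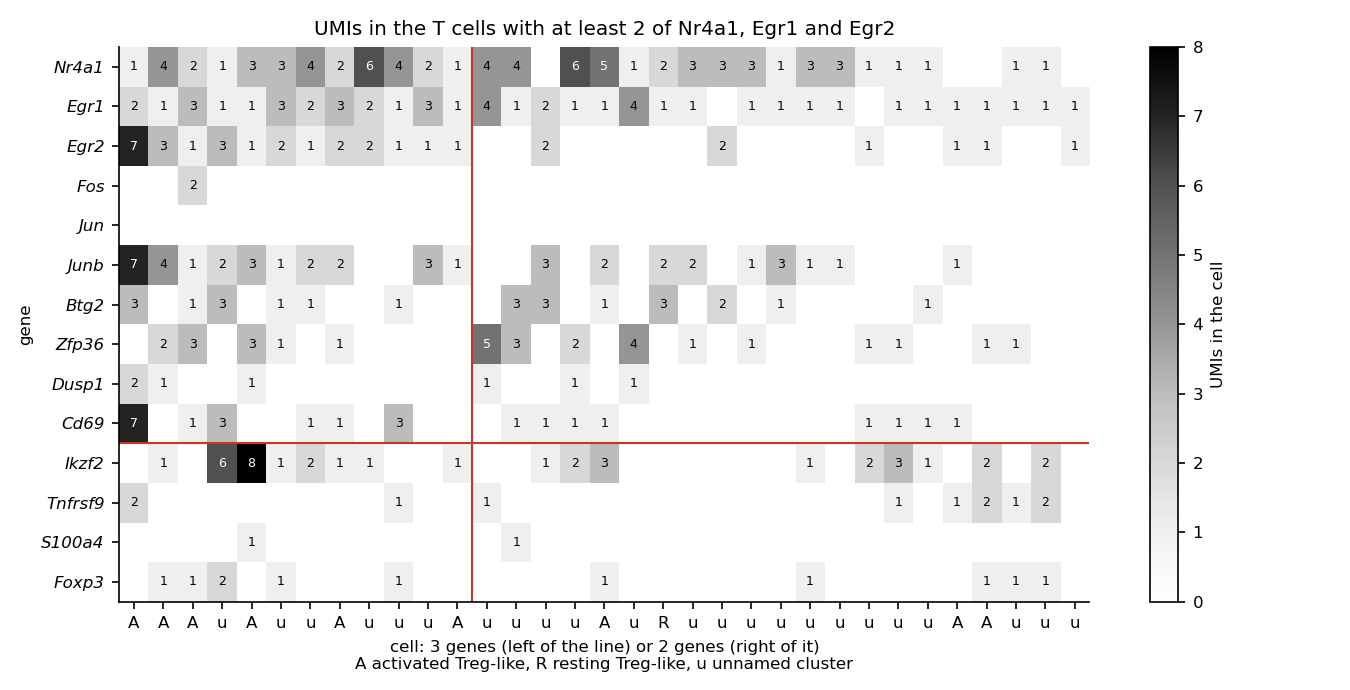
UMIs of each member and of Ikzf2, Tnfrsf9, S100a4 and Foxp3 (rows) in each of the 33 T cells with at least 2 TCR-linked genes (columns), with numbers and grey shade giving the count. Junb is filled in 19 columns, Jun in none and Fos in 1.

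The 12 cells with all 3 TCR-linked genes held 4 to 29 member UMIs, with a median of 11, at totals of 646 to 1661 UMIs. Junb was seen in 10 of them, Btg2 and Cd69 in 6 each, Zfp36 in 5, Dusp1 in 3, Fos in 1 and Jun in 0. Of these 12 cells, 6 were activated Treg-like and 6 lay in unnamed clusters. The cell with 29 member UMIs was activated Treg-like, with 7 UMIs each of Egr2, Junb and Cd69 among 1319. Without the highest cell, the ratio for cells with 2 or 3 genes was 4.85. A B cell marker UMI was present in 1 of the 12 cells and a myeloid marker UMI in 5, with at most 1 UMI of each list per cell. Over all T cells, at least 2 TCR-linked genes were found in 4.79% of activated Treg-like cells (2.21 to 8.89) and 0.667% of resting ones (0.0169 to 3.66). They were found in 0 of 77 proliferating-like cells, a count whose interval reaches 4.68%. In an unnamed cluster of 351 cells led by Lad1, Dctpp1 and Fabp5 the share was 3.13% (1.57 to 5.54).

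Other genes induced through the TCR moved with Nr4a1, Egr1 and Egr2. Of 23 listed genes 16 could be measured, and 12 were at least 1.5-fold higher in the 148 cells, where 16.1% of all genes measured were, and 0 lower. The median log2 ratio was 1.21 against 0.04 over all genes measured. The list was chosen with earlier results of these data known, so it is not independent of them. Irf4, a transcription factor of effector Tregs, had the largest ratio, 6.39 (2.92 to 13.5), on 13 and 20 UMIs. Nfkbid, a nuclear partner of NF-kB needed for Treg development, had a ratio of 5.32 (3.37 to 8.25). Spry1, an inhibitor of receptor signaling, followed at 4.92 (1.68 to 13.0). Nab2, which binds EGR proteins and represses their targets, reached 4.47 (on 20 and 44 UMIs). Without the highest cell of each gene the order changed, with Irf4 at 4.46, Nfkbid at 4.70, Spry1 at 3.58 and Nab2 at 4.79. Nr4a2 and Nr4a3, the other receptors of the Nr4a family, had 1 and 2 UMIs in the whole table, and Egr3 had 0.

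Among 12 measured genes of the other immediate early list, 6 were higher, where 16.1% of all genes measured were, and 1 was lower. Csrnp1 was at 3.13 (1.85 to 5.13) and Ier2 at 2.85 (2.07 to 3.86). Sertad1 was the lower one, at 0.273 (0.0325 to 1.02) on 2 and 72 UMIs, where 17% of all genes measured were at least 1.5-fold lower. Of 10 measured genes of the RNA-decay list, 2 were higher, Zfp36l1 at 2.36 and Cnot1 at 1.65, the latter on 31 and 185 UMIs, a count near the 16.1% of all genes. Of 3 egress genes, 0 reached 1.5-fold, with S1pr1 at 0.683 (0.499 to 0.916) and Klf2 at 0.721 (0.568 to 0.904). Of 8 Treg identity genes only Socs2, a feedback inhibitor of cytokine signaling, passed, at 0.421 times the level without (0.207 to 0.766), while Foxp3 was at 0.807 (0.610 to 1.05). The heat shock list stood at 4416 and 3601 CPM, a ratio of 1.23 (1.14 to 1.32), resting Treg markers at 0.746 and proliferating markers at 1.65. Their part in the members' ratios was not tested.

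The genes most like each member over T cells were found by residual correlation with genes of at least 50 UMIs, 4949 or 4950 for each member. For Nr4a1 these were Egr1 (0.32), Dusp2 (0.26), a phosphatase of MAP kinases, and Nfkbid (0.20). For Egr1 they were Nr4a1, Zfp36 (0.27) and Cd69 (0.25), and for Egr2 they were Cd69 (0.38), Junb (0.34) and Egr1. A single T cell held 7 UMIs each of Egr2, Junb and Cd69, and the correlations of Egr2 without that cell were not computed. For Junb they were Cd83 (0.21), Nfkbia (0.21) and Nfkbid (0.21), genes under NF-kB, none of which is a member. The closest genes to Btg2 reached only 0.12 (Cd69), 0.09 (Egr1) and 0.09 (Ubac2), and the closest gene to Dusp1 0.11 (Nfkbia), against a 99th percentile of 0.06 for Btg2 and 0.08 for Dusp1. Correlations of Fos and Jun rest on 2 to 4 shared cells and are not read.

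Cells grouped by the other members showed the TCR-linked genes again. In the 292 T cells with an AP-1 UMI, TCR-linked genes had 3.55 times the level of cells without (2.82 to 4.46), while Btg2 had 1.25 (0.958 to 1.61) and Zfp36 1.15 (0.844 to 1.54). S100a4 had 2.80 times the level (2.18 to 3.59), and 0.342 times (0.0398 to 1.34) without activated Treg-like cells. NK markers had 1.86 times and myeloid markers 1.36 times the level in those cells, and their part was not tested. Of 7 other members measured, 5 were at least 1.5-fold higher, where 10.1% of genes were. In the 524 T cells with a Btg2 or Zfp36 UMI, TCR-linked genes had 3.31 times the level (2.64 to 4.16) and summed AP-1 genes 1.21 (0.971 to 1.51). In the same cells NK markers were at 2.10 times (1.65 to 2.67), proliferating markers at 1.62 times (1.40 to 1.88) and myeloid markers at 1.27 times (1.10 to 1.47) the level of cells without, and their part was not tested. There 4 of 7 measured members were higher, where 6.37% of genes were. Among genes with at least 50 UMIs, Penk, which encodes the enkephalin precursor, had the highest ratio with an AP-1 UMI, 7.19. It fell to 3.40 without 1 cell that held 36 of its UMIs. Ccr2, a chemokine receptor, followed at 4.72 (2.81 to 7.92), then Egr1 at 4.01, Nfkbid at 3.30 and Fam46a at 3.24.

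Ikzf2 encodes Helios, a transcription factor of many thymus-derived Tregs. It had a UMI in 788 T cells, 41.0%, and in 4.55% of B cell-like cells. Detection of Ikzf2 went with little difference in the members. TCR-linked genes stood at 182 CPM with and 140 CPM without (1.30, 1.04 to 1.63), and AP-1 and RNA-decay genes at 530 and 505 CPM (1.05, 0.927 to 1.19). After every cell was thinned to 500 UMIs, the TCR-linked ratio was 0.796, below 1, so its direction was not stable. Junb was at 1.29 (1.04 to 1.60), Btg2 at 0.978 and Zfp36 at 0.930. Dusp1, at 1.57 (0.971 to 2.57), was the 1 member of 9 measured that was at least 1.5-fold higher, where 9.28% of genes were. Jun, at 0.554 (0.193 to 1.42) on 7 and 16 UMIs, was the 1 that was lower, where 5.55% of genes were.

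Tnfrsf9 encodes 4-1BB, a costimulatory receptor that TCR signals induce. It had a UMI in 163 T cells, 8.47%, and in 0 of 88 B cell-like cells, a count whose interval reaches 4.11%. TCR-linked genes stood at 293 CPM with and 143 CPM without (2.05, 1.53 to 2.72), while AP-1 and RNA-decay genes stood at 591 and 507 CPM (1.17, 0.959 to 1.41). With all T cells in, the intervals of these ratios do not overlap. However, 1 cell with Tnfrsf9 gave 1 Nr4a1, 2 Egr1 and 7 Egr2 UMIs, so no difference between the ratios is read from this. The difference between the ratios was not tested, nor was the summed ratio without that cell. Nr4a1 was at 156 and 80.8 CPM (1.93, 1.28 to 2.83) and Egr1 at 75.7 and 42.6 CPM (1.78, 0.967 to 3.07). Egr2 was at 61.5 and 19.4 CPM (3.17, 1.54 to 6.15), but 7 of its 13 UMIs there came from 1 cell, and without that cell the ratio was 1.47. Dusp1 was at 70.9 and 32.6 CPM (2.17, 1.14 to 3.88). Junb (1.31, 0.936 to 1.79), Btg2 (1.15) and Zfp36 (1.05) had intervals that hold 1.

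Of 9 members measured, 4 were at least 1.5-fold higher with Tnfrsf9, where 18.6% of genes were. With a minimum of 1000 UMIs per cell the TCR-linked ratio was 1.37 (0.846 to 2.12). The TCR-induced list had 10 of 16 genes higher, among them Pdcd1 at 7.60 (3.62 to 15.8) and Tnfrsf4 at 3.12 (on 116 and 318 UMIs). All 3 egress and homing genes were lower, where 15.2% of genes were. Heat shock genes had a ratio of 1.46 (1.37 to 1.56), activated Treg markers 1.82, proliferating markers 2.36 and B cell markers 1.91, the last on 25 and 112 UMIs. Their part was not tested.

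**Figure D5:**
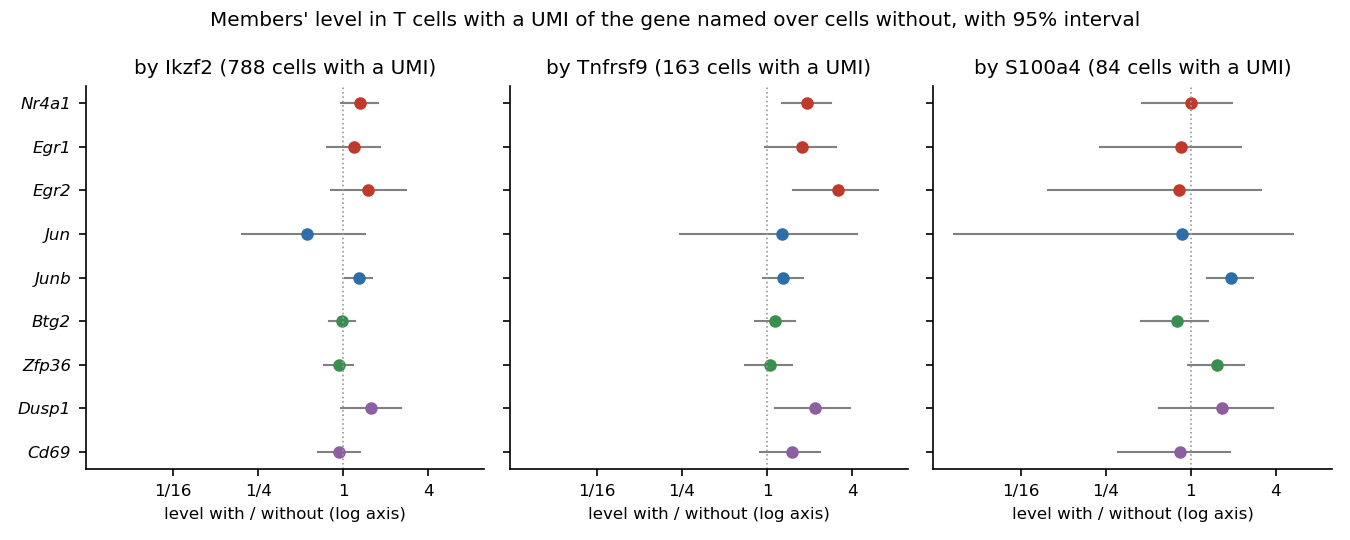
Ratio of each member's level in T cells with a UMI of Ikzf2, Tnfrsf9 or S100a4 to that in cells without (x axis, log scale), with 95% counting intervals. Fos, with 7 UMIs, is not drawn. The TCR-linked genes lie right of 1 for Tnfrsf9 and near 1 for S100a4, where Junb lies at 1.92. In the S100a4 panel the TCR-linked ratio (0.932 summed) ran from 0.350 to 2.49 under other choices of cells.

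S100a4 encodes a calcium-binding protein found in effector and migrating T cells. It had a UMI in 84 T cells, 4.37%, and in 4.55% of B cell-like cells, where 4 cells held 13 UMIs. It was seen in 35.1% of activated Treg-like cells, 1.13% of unnamed T cells and 0 of 150 resting Treg-like cells. Of its 282 UMIs in T cells, 87.9% lay in activated Treg-like cells, at 1186 CPM against 14.7 CPM in unnamed ones. TCR-linked genes stood at 148 CPM with and 159 CPM without S100a4 (0.932, 0.515 to 1.56). That ratio moved to either side of 1 with the cells used: 2.49 (0.992 to 5.22) without activated Treg-like cells, 2.18 at a minimum of 1000 UMIs, 1.62 over all kept cells and 0.350 (0.0421 to 1.29) with cells thinned to 500 UMIs. AP-1 and RNA-decay genes stood at 692 and 507 CPM (1.36, 1.05 to 1.74). Junb stood at 316 and 164 CPM (1.92, 1.29 to 2.77), Zfp36 at 217 and 141 CPM (1.54, 0.948 to 2.38) and Btg2 at 148 and 186 CPM (0.796, 0.441 to 1.33). Of 9 members measured 3 were at least 1.5-fold higher, and 33.3% of all genes were, so the count stands near the background.

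The relation of Junb to S100a4 was not seen outside the activated Treg-like class, where few cells bear on it. Whether it holds within that class was not tested. The class as a whole had Junb at 387 CPM (308 to 481), above its level in T cells with S100a4. With those cells left out 18 cells with S100a4 remained, and the Junb ratio was 0.651 (0.0784 to 2.37), on the other side of 1. Cells with S100a4 carried activated Treg markers at 12.4 times, proliferating markers at 4.23 times, myeloid markers at 2.51 times and ribosomal protein genes at 0.701 times the level of cells without. Seen from the TCR-linked genes, S100a4 was at 53.7 CPM in the 148 cells with any of them and 148 CPM in the others. The ratio was 0.361 (0.171 to 0.675). Detection was not lower, with an S100a4 UMI in 4.73% of the 148 cells and 4.34% of the others. S100a4 UMIs were bunched, in 84 T cells where 260 were expected from depth, and the 10 highest cells held 33.0%. How the interval holds for such bunched UMIs was not tested, so no lower S100a4 is read from this ratio. The ratio also changed side, to 1.86 (0.561 to 4.85), without the activated Treg-like cells.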

How the data were processed

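The authors deposited a single count table for the library: raw UMI counts, not normalized. Cells were dissociated, sorted, encapsulated by inDrops and sequenced on a NextSeq500, per the labels' protocols. The submitters' processing notes name TopHat2, SAMtools and mm10, without versions; the counter, annotation and use of strand are not given in the sources used here. Mitochondrial genes were not analysed here.

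Cells with at least 500 UMIs were kept (184 were below). Clusters came from Pearson residuals of 1000 variable genes without the members, Ikzf2, Tnfrsf9, S100a4 or the gene lists counted below, 15 components, 20 neighbors and the Leiden algorithm at resolution 0.8 (leidenalg 0.10.2). A cluster was named where at least 3 of a list's markers with 5 UMIs, and their median, were 1.5-fold above all other cells. Scrublet (scanpy 1.11.5) marked 0 of 2055 cells and so did not work as a caller; doublets were kept.

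With 1 library there is no replicate, and tests and p-values were not used. The 95% intervals use the Poisson distribution for levels, Clopper-Pearson limits for shares, and for ratios the exact binomial given both counts (scipy 1.17.1). A ratio leaves the UMIs of the genes that split the cells out of the total, except the ratios by number of TCR-linked genes. A gene was measured with 20 UMIs over both sides and called at 1.5-fold; at this depth, genes with few UMIs often pass by counting error. The members and lists were chosen with earlier results of these data known. Named genes are the members, Ikzf2, Tnfrsf9, S100a4 and Foxp3, the 3 genes most correlated with each member, from each list the 3 genes whose level differed most by TCR-linked detection, and the 5 highest and lowest genes of at least 50 UMIs for TCR-linked and AP-1 detection; others were named after their values were seen. Co-detection was tested on simulated counts, independent or confined to a share of the cells. Ratios were tested on simulated Poisson counts, which lack the bunching in few cells of Nr4a1, Egr1, Egr2 and S100a4. That test cannot tell how the intervals hold for bunched genes.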

Additional observations from a re-analysis of the deposited data

How the results depend on the processing

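Of 183 alternative values of 23 results, 150 lay within the interval of the value reported, 23 outside it, and for 10 a value at least 1.5-fold from 1 changed side; the 23 include TCR-linked ratios by Ikzf2 and S100a4, reported under 1.5-fold, that crossed 1; the causes were not tested except where the construction shows them. The co-detection of TCR-linked genes and the excess of AP-1 and RNA-decay genes with them kept their direction under each of the 8 alternatives run. At a minimum of 1000 UMIs, 826 T cells were left and the pooled member level was 704 CPM, against 781 CPM as reported. TCR-linked ratios there were 1.03 by Ikzf2, 1.37 by Tnfrsf9 and 2.18 by S100a4. Junb by S100a4 was 0.305, S100a4 by TCR-linked genes 1.85, Egr2 by Tnfrsf9 0.421 and S100a4 by AP-1 genes 0.169 (2.80 as reported). At that minimum 60 of the 86 activated Treg-like cells fell in a cluster named myeloid-like and were left out with it. Thinned to 500 UMIs, co-detection was 9.73, the AP-1 and RNA-decay ratio by TCR-linked detection 2.70, by 2 or 3 TCR-linked genes 7.49 and by Tnfrsf9 1.41. TCR-linked ratios were then 0.796 by Ikzf2, 2.97 by Tnfrsf9 and 0.350 by S100a4. Over all kept cells the member level was 832 CPM, the TCR-linked ratio by S100a4 1.62 and S100a4 by TCR-linked genes 1.29. Among cells without a B cell or myeloid marker UMI, Egr2 by Tnfrsf9 was 0.645, Cd69 by TCR-linked genes 2.52 and Junb 1.67. With ribosomal UMIs out of the total the member level was 1229 CPM. Without the activated Treg-like cells, an alternative chosen after the data were seen, the member level was 722 CPM, the TCR-linked ratio by S100a4 2.49, Junb by S100a4 0.651, S100a4 by TCR-linked genes 1.86, Egr2 by Tnfrsf9 0.795 and S100a4 by AP-1 genes 0.342. The class ratio was 1.26 with 500 and 4.81 with 2000 variable genes. With minimums of 300 and 1000 UMIs and with 30 components no resting Treg-like class was named, so that ratio has no value. Leaving out doublets was not run, since 0 were called. No paired analysis was possible because there is 1 library and no test.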

Other observations

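In the cells set aside, the myeloid-like class had higher levels of several members than any T cell class, though the intervals overlap for Junb with activated Treg-like cells and for Zfp36 with proliferating-like cells. Nr4a1 stood at 631 CPM (416 to 919) on 27 UMIs in 10 of 43 cells, Dusp1 at 585 CPM (378 to 863), Junb at 514 CPM (322 to 779) and Zfp36 at 491 CPM (304 to 751). Egr1 and Egr2 had 2 UMIs each there. In B cell-like cells Btg2 stood at 444 CPM (320 to 601) in 35.2% of cells, above its 184 CPM in T cells, and Egr1, Egr2 and Fos had 0 UMIs among 88 cells.

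Several immediate early genes were close to absent from the whole table. Fosb had 4 UMIs, Ier3 had 2, and Atf3, Fosl1, Egr3 and Dusp5 had 0 each. With T cells divided into 4 groups by depth, the summed level of TCR-linked genes was 132 CPM (95.8 to 178) in the shallowest and 167 CPM (139 to 199) in the deepest, and that of AP-1 and RNA-decay genes 554 CPM (476 to 641) and 489 CPM (440 to 541).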
